A study of Mus musculus with 6 samples.

Results

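The genes described here carry itch-linked cytokine and leukotriene signals in sensory neurons, from the receptor chains Il31ra, Osmr, Il6st, Lifr, Il4ra and Il13ra1 and the leukotriene receptor Cysltr2 to the kinases Jak1 and Jak2 and the transcription factor Stat3. They were chosen by symbol, as the rows of the read count table whose Ensembl mouse gene ID maps to a name on that list. All 10 were found among the 47937 rows of the table, and all 10 passed the filter on low counts.

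RNA-seq compared whole dorsal root ganglia (DRGs) of control mice with those of Tlx3cko mice, in which Tlx3, a homeobox transcription factor of sensory neurons, is deleted by Cre. Control and Tlx3f/f;SNS-cre animals were on a C57BL/6 background, aged about 2 months, with n = 3 libraries per genotype from cervical, thoracic and lumbar ganglia. The control animals are labelled wild type, while the control mice of the study's behavioural work are Tlx3F/F littermates. SNS-cre expresses Cre from the Nav1.8 (Scn10a) promoter, which is active in most nociceptors from late embryonic life, so the deletion is aimed at part of the neurons, while the libraries hold RNA of all cells of the ganglia.

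The control libraries held 13761480, 15006871 and 18775628 counts. The Tlx3cko libraries held 15535247, 11458299 and 15303922 counts. Xist, transcribed in female cells, had 591 and 493 counts in controls 1 and 2 and at most 2 counts in each other library. The Y-linked gene Ddx3y had 0 counts in controls 1 and 2 and 273 to 525 counts in control 3 and the 3 Tlx3cko libraries. Controls 1 and 2 were thus female by these genes, while control 3 and every Tlx3cko library were male, so sex and genotype overlap in part.

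IL31 acts through a receptor that pairs the Il31ra chain with the Osmr chain, and oncostatin M acts through Osmr with gp130, the product of Il6st. IL4 and IL13 act through Il4ra paired with Il13ra1, and IL4 also acts through Il4ra paired with the common gamma chain. These cytokine receptors carry JAK kinases that phosphorylate STAT factors, while Cysltr2 is a G protein-coupled receptor for cysteinyl leukotrienes. In mouse DRGs, Il31ra, Osmr and Cysltr2 mark a class of itch neurons, often called NP3, that also expresses Nppb and Sst.

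Counts below are normalized to the mean effective library size of the 6 libraries unless raw counts are named, means are given ± SD with n = 3, and a fold change is Tlx3cko against control on the log2 scale with its standard error (SE). A gene counts as past the threshold when its p from the quasi-likelihood test of edgeR, adjusted by the Benjamini-Hochberg method over the 20006 genes tested, is under 0.05. By that test 7 of the 10 members were past the threshold, where 4.25% of all genes tested were. Of these, 6 were lower in Tlx3cko DRGs, where 2.56% of all genes were lower, and 1 was higher, where 1.69% of all genes were higher. The values of the groups did not overlap for the same 7 members, against 19.7% of all genes tested. The members were chosen with earlier results of these data known. The shares over all genes are thus given as description, and enrichment was not tested. The median log2 fold change of the 10 members was -0.31, with 9 of 10 below 0, and the median over all genes tested was -0.00. The number past the threshold was 5 without control 2, 4 without control 3, 6 without Tlx3cko 1, 5 without Tlx3cko 2 and 3 without Tlx3cko 3, and 4 with sex as a term.

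**Figure D1:**
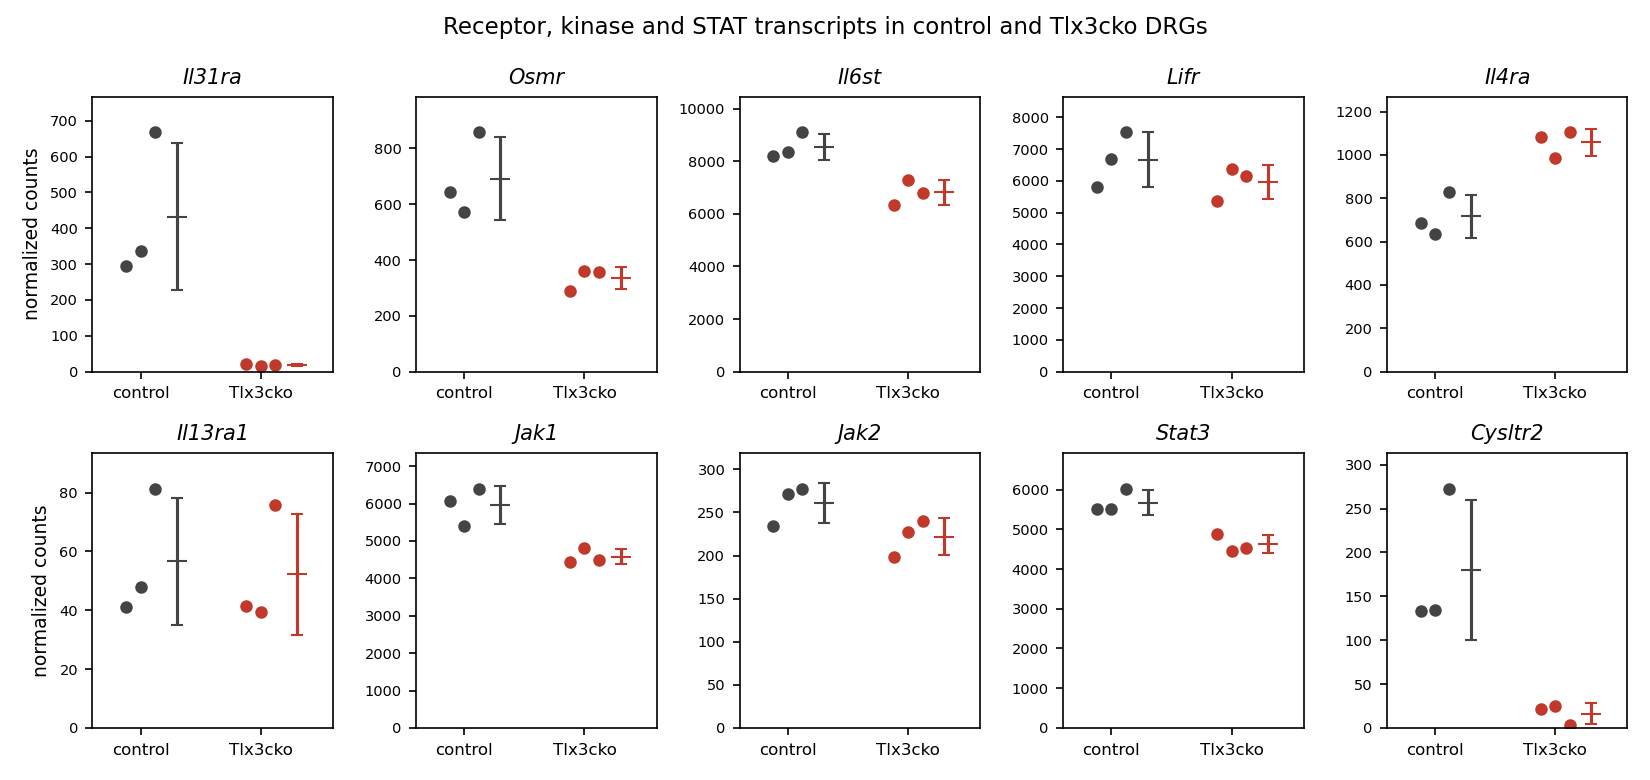
Normalized counts (y axis, from 0) of the 10 members in each control (grey) and Tlx3cko (red) library, in replicate order from left to right, with the group mean and SD (bars) beside the points. Il31ra and Cysltr2 lie near 0 in every Tlx3cko library, Il4ra lies higher in all 3 Tlx3cko libraries, and the groups of Lifr, Il13ra1 and Jak2 overlap.

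Tlx3 (ENSMUSG00000040610), the deleted gene, had 1828, 2262 and 2433 raw counts in the controls and 1717, 1052 and 1475 in Tlx3cko DRGs. Its normalized mean was 2057 ± 173 in control and 1495 ± 141 in Tlx3cko DRGs, 72.7% of control. The 3 Tlx3cko libraries were below the 3 controls, and the log2 fold change was -0.46 (SE 0.09, adjusted p 0.0122 by the same edgeR test). Across alternatives the adjusted p ran from 3.25e-05 to 0.223. It was above the threshold without control 2 (0.0606), Tlx3cko 2 (0.091) or Tlx3cko 3 (0.0706). With sex as a term (0.223) and among the male libraries alone it was above the threshold too. The log2 fold change lay between -0.54 and -0.38 across these alternatives. The counts are per gene and do not separate deleted exons from the rest of the transcript.

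Beside the members, 62 other genes of these pathways were examined, from ligands to inhibitors and targets. Of the 50 that were tested, 5 were lower and 2 were higher in Tlx3cko DRGs by the same edgeR test, against 2.56% and 1.69% of all genes, and the median log2 fold change of the 49 above the floor of 3 counts was -0.02. The number past the threshold was 3 without Tlx3cko 2 and 4 without any other single library, and it was 10 when genes with at least 1 count in total were tested.

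Of the 11 cytokine ligand genes examined, Il31 and Il13 had 0 counts in all 6 libraries, and Il6, Il11 and Cntf had at most 3 counts in any library. Oncostatin M (Osm) had at most 5 counts in any library. The edgeR test reached 5 of the 11, and 0 of those 5 were past the threshold, with 0 at an unadjusted p under 0.05 and 0 by DESeq2 or limma-voom. The median log2 fold change of these 5 was 0.28, against -0.00 over all genes. Il4 was the most abundant by count, with 541 to 798 raw counts per library and a log2 fold change of 0.02. Its annotated model lies on the minus strand, with its 3′ end 1014 bases from the 3′ end of Kif3a on the plus strand, which had 1822 to 3012 raw counts per library, and the strand of the reads is not given in the sources used here, so the counts at Il4 are of uncertain origin. Ligand transcripts in the skin or in other tissues were not measured.

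Il31ra (ENSMUSG00000050377, GRCm38 chr13:112519898-112594360, minus strand), the chain that sets the specificity of the IL31 receptor, had 273, 337 and 837 raw counts in the controls and 22, 13 and 19 in Tlx3cko DRGs. The normalized values were 295, 336 and 668 in the controls and 21.2, 17.1 and 18.7 in Tlx3cko DRGs. The Tlx3cko libraries lay close together and far below every control, and control 3 stood above the other 2 controls. The mean fell to 4.38% of control, with a log2 fold change of -4.50 (SE 0.33, adjusted p 6.84e-06 by the same edgeR test). In bulk samples such as these, fewer cells of a type and less RNA per cell cannot be told apart.

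Osmr (ENSMUSG00000022146, chr15:6813577-6874969, minus strand), the partner chain that Il31ra needs for signalling, had normalized values of 644, 572 and 858 in the controls and 289.7, 361 and 357 in Tlx3cko DRGs. No Tlx3cko library reached the lowest control, yet the transcript was still readily detected in each. The mean was 48.6% of control, with a log2 fold change of -1.05 (SE 0.15, adjusted p 0.00125 by the same edgeR test). Il31ra and Osmr were past the threshold in all 15 alternatives, with adjusted p of at most 0.00132 and 0.00829.

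The pair of IL31 receptor chains did not change by the same factor. For every 100 Osmr counts there were 45.7, 58.7 and 77.9 Il31ra counts in the controls and 7.31, 4.73 and 5.23 in Tlx3cko DRGs. The log2 ratio of Il31ra to Osmr, which needs no normalization between libraries, was -1.13, -0.77 and -0.36 in the controls and -3.74, -4.35 and -4.22 in Tlx3cko DRGs. Every Tlx3cko library had a lower ratio than every control, and the group means differed by -3.35. An exact two-sided permutation test gave p 0.1, the smallest that 3 libraries against 3 allow.

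Il6st (ENSMUSG00000021756, chr13:112464070-112510086, plus strand) encodes gp130, the signalling chain shared by the IL6 family of cytokines. It had normalized values of 8191, 8335 and 9099 in the controls and 6342, 7305 and 6793 in Tlx3cko DRGs. The groups did not overlap, though the gap between the nearest libraries was small beside the level. The mean was 79.8% of control, with a log2 fold change of -0.33 (SE 0.08, adjusted p 0.0288 by the same edgeR test). This call was lost in 6 of 15 alternatives, where the adjusted p ran from 0.0021 to 0.127. It was lost without control 2 (0.0648), control 3 (0.103), Tlx3cko 1 (0.0863), Tlx3cko 2 (0.0541) or Tlx3cko 3 (0.127). With sex as a term it was also lost (0.0515), at a log2 fold change of -0.42. Over the 15 alternatives the log2 fold change lay between -0.42 and -0.28. Lifr, the chain that pairs with gp130 for leukaemia inhibitory factor, had 4857 to 9434 raw counts per library and overlapping groups. Its log2 fold change of -0.16 (SE 0.10) missed the threshold (adjusted p 0.519 by the same edgeR test). That value ran from -0.25 to -0.07 when 1 library was left out, and it was -0.34 with sex as a term.

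Il4ra (ENSMUSG00000030748, chr7:125552120-125579474, plus strand), the chain shared by the IL4 and IL13 receptors, was the member that rose. It had normalized values of 688, 637 and 828 in the controls and 1085, 987 and 1104 in Tlx3cko DRGs. All 3 Tlx3cko libraries were above all 3 controls. The mean was 148% of control, with a log2 fold change of 0.56 (SE 0.11, adjusted p 0.00935 by the same edgeR test). The adjusted p ran from 9.97e-06 to 0.286 over 15 alternatives and was above the threshold without Tlx3cko 3 (0.0528), with sex as a term (0.286) and among the male libraries alone (0.223), where the log2 fold changes with sex as a term and among males were 0.36 and 0.35. Of the 6002 exonic bases of Il4ra, 571 (9.51%) lie under Gm44876 on the other strand, a gene with 96 to 201 raw counts per library, so part of the Il4ra count is of uncertain strand. Gm44876 was itself at 152% of control in Tlx3cko DRGs, with a log2 fold change of 0.59 and groups that did not overlap, though it missed the threshold, and how reads are shared between these genes was not tested.

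Il13ra1, the chain that completes the IL13 receptor with Il4ra, was sparse. It had 38, 48 and 102 raw counts in the controls and 43, 30 and 77 in Tlx3cko DRGs. The groups overlapped, with a high library in each, and the log2 fold change was -0.12 (SE 0.34) with an adjusted p of 0.924. The log2 fold change turned positive without control 3 (0.24), without Tlx3cko 1 (0.03) and without Tlx3cko 2 (0.04), so no direction is given for it.

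Among 4 other chains of the gp130 family, 1 was higher and 0 were lower by edgeR, with 2 at an unadjusted p under 0.05 and 1 each by DESeq2 and limma-voom, and the median log2 fold change was 0.20. The higher gene was Cntfr, the binding chain for ciliary neurotrophic factor, which had 1451, 1356 and 1580 raw counts in the controls and 2015, 1382 and 1824 in Tlx3cko DRGs. After normalization all 3 Tlx3cko libraries were above the controls, with a log2 fold change of 0.41 (SE 0.09, adjusted p 0.023 by the same edgeR test). Over its alternatives the adjusted p ran from 0.000496 to 0.094. Cntfr missed the threshold without control 2 (0.0891), control 3 (0.094), Tlx3cko 1 (0.0691), Tlx3cko 2 (0.065) or Tlx3cko 3 (0.0675). Its log2 fold change lay between 0.34 and 0.43 in those fits. Of 6 other itch-linked cytokine receptor genes, 4 were tested and 0 were past the threshold by edgeR, with 0 at an unadjusted p under 0.05 and 0 by DESeq2 or limma-voom. The most abundant by count was Crlf2, the receptor chain for thymic stromal lymphopoietin, at 294 ± 21.1 in control and 254 ± 16.9 in Tlx3cko DRGs, and Il13ra2 had at most 1 count in any library.

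Jak1 (ENSMUSG00000028530, chr4:101152367-101265282, minus strand) is the kinase bound by gp130, Il31ra and Il4ra. It had normalized values of 6074, 5407 and 6399 in the controls and 4445, 4809 and 4480 in Tlx3cko DRGs. Every Tlx3cko library was below every control. The mean was 76.8% of control, with a log2 fold change of -0.38 (SE 0.08, adjusted p 0.0145 by the same edgeR test). Over the alternatives the adjusted p ran from 0.000222 to 0.0881, above the threshold without control 3 (0.059) and without Tlx3cko 3 (0.0881). The log2 fold change was -0.33 without control 3 and -0.36 without Tlx3cko 3. Jak2, a second kinase of these receptors, had 173 to 348 raw counts per library, overlapping groups and a log2 fold change of -0.24 (SE 0.14) that missed the threshold (adjusted p 0.515).

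Stat3 (ENSMUSG00000004040, chr11:100885098-100939540, minus strand), the main STAT activated by gp130, had normalized values of 5500.4, 5503 and 6026 in the controls and 4896, 4460.2 and 4539.8 in Tlx3cko DRGs. The groups did not overlap. The mean was 81.6% of control, with a log2 fold change of -0.29 (SE 0.07, adjusted p 0.0414 by the same edgeR test). This was the member nearest the threshold, lost in 7 of 15 alternatives, whose adjusted p ran from 0.0107 to 0.22. It was lost without control 2 (0.0761), control 3 (0.137), Tlx3cko 2 (0.22) or Tlx3cko 3 (0.191). The same held with the replicate number as a replicate block (0.0819), with sex as a term (0.0698) and among the male libraries. The log2 fold change was -0.29 with the block and -0.38 both with sex as a term and among males. Over the 15 alternatives it lay between -0.38 and -0.25.

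Among 8 other JAK and STAT genes, 1 was lower and 0 were higher by edgeR, with 3 at an unadjusted p under 0.05 and 1 each by DESeq2 and limma-voom. The median log2 fold change of the 7 above the floor was -0.08, Stat4 being at or under that floor in every library. Stat5b, a STAT of growth hormone and cytokine receptors, had 846, 883 and 1267 raw counts in the controls and 657, 460 and 651 in Tlx3cko DRGs. Its normalized mean fell from 935 ± 67.7 to 626 ± 19.4 with no overlap, a log2 fold change of -0.58 (SE 0.09, adjusted p 0.00289 by the same edgeR test), and it was past the threshold in all 15 alternatives. Stat5b shares a near-identical stretch of up to 187 bases with Stat5a, so some of its reads could belong to either gene. Stat5a itself had a log2 fold change of -0.09. That value ran from -0.21 to 0.11 when 1 library was left out, so no direction is given for Stat5a. Stat6, the STAT of Il4ra and the most abundant of this list by count, had a normalized mean of 1942 ± 85.9 in the controls, against 2170 ± 264 in the Tlx3cko group, and missed the threshold.

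Of 17 genes that restrain JAK-STAT signalling, 3 were lower and 1 was higher, and their median log2 fold change was -0.05. Socs2, a feedback inhibitor that binds cytokine receptors, had 299, 377 and 555 raw counts in the controls and 191, 119 and 200 in Tlx3cko DRGs. No Tlx3cko library reached a control after normalization, and the log2 fold change was -1.09 (SE 0.15, adjusted p 0.000987 by the same edgeR test), past the threshold in all 15 alternatives. Gm9847, a near copy of Socs2, had at most 2 counts in any library. Ptpn6, the phosphatase SHP-1, had 111, 103 and 84 raw counts in the controls and 19, 12 and 26 in Tlx3cko DRGs. All 3 Tlx3cko libraries were well below the controls, with a log2 fold change of -2.25 (SE 0.31, adjusted p 0.000837 by the same edgeR test). Of its exonic bases 6.96% are shared with Gm20531 on the other strand, which was at 29.3% of control in Tlx3cko DRGs (log2 fold change -1.72, groups not overlapping) but missed the threshold. Over the alternatives of Ptpn6 the adjusted p ran from 2.14e-10 to 0.0778, the highest being among the male libraries alone. Ptpn11, encoding SHP-2, was the most abundant inhibitor by count, with a log2 fold change of 0.01.

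The calls of 2 further inhibitors lay near the threshold. Socs7 had a log2 fold change of -0.30 (SE 0.08, adjusted p 0.0402 by the same edgeR test), with all 3 Tlx3cko libraries below the controls. It missed the threshold in 9 of 15 alternatives, whose adjusted p ran from 0.013 to 0.199, among them each single library left out: control 1 (0.0788), control 2 (0.0506), control 3 (0.127), Tlx3cko 1 (0.0803), Tlx3cko 2 (0.199) and Tlx3cko 3 (0.112), and also with a replicate block (0.079), with sex as a term (0.142) and among the male libraries alone (0.11). Its log2 fold change stayed between -0.35 and -0.27 in these alternatives. Sh2b3, encoding the adaptor LNK, had a log2 fold change of 0.64 (SE 0.16, adjusted p 0.0436), with all 3 Tlx3cko libraries above the controls. Its adjusted p ran from 0.00127 to 0.16 and missed the threshold in 7 of 15 alternatives, among them without control 1 (0.0977), control 3 (0.16), Tlx3cko 1 (0.15), Tlx3cko 2 (0.103) and Tlx3cko 3 (0.0627), with sex as a term (0.065) and among the male libraries alone (0.0543), while its log2 fold change lay between 0.51 and 0.89. Of the exonic bases of Sh2b3, 99 (2.06%) lie under Atxn2 on the other strand, a gene with 915 to 1336 raw counts per library, so part of this count too is of uncertain strand.

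Genes that STAT3 activates were examined as a readout of the pathway. By edgeR 0 of 8 were past the threshold, with 3 at an unadjusted p under 0.05, 1 past it by DESeq2 and 0 by limma-voom. Their median log2 fold change was 0.34, with 2 of 8 below 0. Their summed level was 2433, 2513 and 2351 normalized counts in the controls and 2677, 3422 and 2676 in Tlx3cko DRGs, highest in Tlx3cko 2. Without Tlx3cko 2 the log2 fold changes were 0.48 for Socs3, 0.20 for Junb and 0.48 for Cebpd. Socs3, the feedback inhibitor of gp130, had 91, 127 and 191 raw counts in the controls and 204, 281 and 157 in Tlx3cko DRGs. After normalization each Tlx3cko library was above each control, but they were spread widely, and the log2 fold change of 0.91 (SE 0.28) missed the threshold (adjusted p 0.102). Over its alternatives the adjusted p of Socs3 ran from 5.05e-05 to 0.639, past the threshold in 3 of 15, by DESeq2 (0.0182), with at least 1 count in total and without Tlx3cko 3 (0.036). Junb (0.52, adjusted p 0.265) was past it in 1 alternative, with at least 1 count in total, and its adjusted p ran from 0.000626 to 0.768. Cebpd (0.72, adjusted p 0.161) was past it there and without Tlx3cko 1 (0.0134), over a range from 0.00186 to 0.538. Mcl1 was the most abundant of the list by count, with a log2 fold change of 0.08. Phosphorylated STAT3 was not measured.

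**Figure D2:**
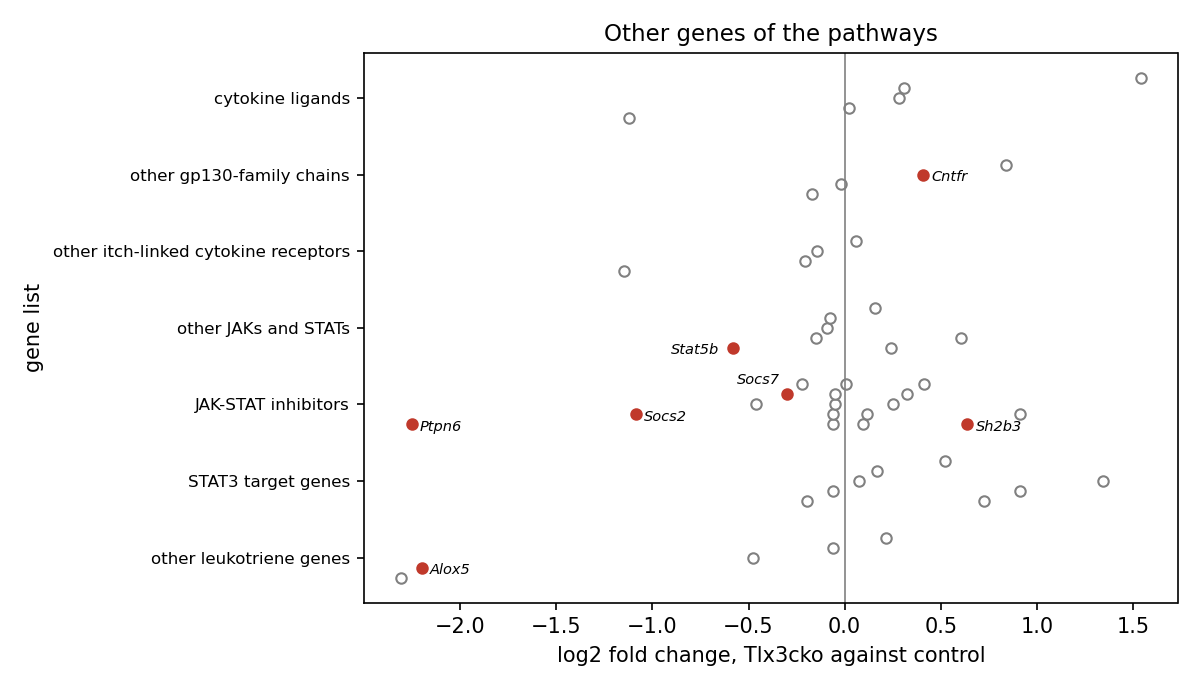
Log2 fold change (x axis) of each other tested gene of the pathway lists (rows), without Stat4; filled red points were past the threshold and are named, open grey points were not. Ptpn6 (-2.25), Alox5 (-2.20) and Socs2 (-1.09) lie farthest left among the named points, and the STAT3 target genes spread to both sides of 0. The open point farthest left is Ltb4r1 (-2.31).

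Cysltr2 (ENSMUSG00000033470, chr14:73025603-73049114, minus strand), a receptor for cysteinyl leukotrienes, had 123, 135 and 342 raw counts in the controls and 22, 19 and 3 in Tlx3cko DRGs. The normalized values were 133, 135 and 273 in the controls and 21.2, 24.9 and 2.95 in Tlx3cko DRGs. The Tlx3cko libraries were all far below the controls, with Tlx3cko 3 lowest and control 3 highest. The mean was 9.08% of control, with a log2 fold change of -3.50 (SE 0.47, adjusted p 0.000691 by the same edgeR test). It was past the threshold in all 15 alternatives, with log2 fold changes from -4.10 to -2.98.

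Counts of the other leukotriene genes ranged widely. Cysltr1, the other cysteinyl leukotriene receptor, had at most 4 counts in any library, and Ltb4r2, Oxgr1 and Ltc4s had at most 3. Of 9 such genes 5 were tested, and 1 was lower and 0 were higher by edgeR, with 2 at an unadjusted p under 0.05, 1 by DESeq2 and 0 by limma-voom, and the median log2 fold change was -0.48. Alox5, the lipoxygenase that starts leukotriene synthesis, had 40, 26 and 20 raw counts in the controls and 4, 4 and 9 in Tlx3cko DRGs. All 3 Tlx3cko libraries were lower, with a log2 fold change of -2.20 (SE 0.55, adjusted p 0.0402 by the same edgeR test). The call was lost in 9 of 15 alternatives, over a range from 0.00278 to 0.574, including without control 1 (0.171), control 2 (0.106), Tlx3cko 1 (0.119), Tlx3cko 2 (0.139) or Tlx3cko 3 (0.0629), by limma-voom (0.112) and with a replicate block (0.0834). With sex as a term the log2 fold change was -1.39 (adjusted p 0.516), and among the male libraries alone it was also -1.39 (0.574). Lta4h, which makes leukotriene B4, was the most abundant by count at 446 ± 90.8 in control and 426 ± 50.5 in Tlx3cko DRGs. The gene beside Alox5 at an unadjusted p under 0.05 was Ltb4r1. It had 14, 10 and 10 raw counts in the controls and 1, 1 and 4 in Tlx3cko DRGs, near the floor. Its groups did not overlap, and its log2 fold change of -2.31 (SE 0.80) missed the threshold (adjusted p 0.158 by the same edgeR test).

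Alox5 and Ptpn6 are also expressed by blood-borne immune cells, and markers of such cells were lower in some Tlx3cko libraries. The 5 neutrophil markers summed to 719, 606 and 246 normalized counts in the controls and 81.8, 63.0 and 351 in Tlx3cko DRGs. All 5 had log2 fold changes below 0, S100a9 was the most abundant, and Ly6g had 0 counts in Tlx3cko 2, as did Elane. By edgeR 0 of 5 were past the threshold, with 4 at an unadjusted p under 0.05 and 0 by DESeq2 or limma-voom. The 7 macrophage markers summed to 725, 722 and 591 in the controls and 527, 569 and 621 in Tlx3cko DRGs. Csf1r was the most abundant. Aif1 was at 0 in Tlx3cko 3, while its 14 raw counts in Tlx3cko 1 were above each control, also after normalization. None of the 7 was past the threshold by edgeR, DESeq2 or limma-voom, with 3 at an unadjusted p under 0.05. All 7 had log2 fold changes below 0. The groups did not overlap for 3 of them, Adgre1 (50.3% of control), Itgam (15.2%) and Cx3cr1 (44.0%), against 19.7% of all genes. Itgam had 19, 31 and 5 raw counts in the controls and 4, 2 and 2 in Tlx3cko DRGs. Its groups were thus only just apart, near the floor of 3 counts. The part of such immune cells in the values of Alox5 and Ptpn6 was not tested.

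Osmr, Il6st, Lifr and Il4ra are not confined to neurons, so the marker lists of other cells are given beside them. Fibroblast markers were lower for 3 of 5 genes, Col1a1, Dcn and Pdgfra, and summed to 4280, 4791 and 4489 normalized counts in the controls and 3510, 3312 and 3679 in Tlx3cko DRGs, with Dcn the most abundant and none at 0. The call of Col1a1 was lost without control 2 (adjusted p 0.155), control 3 (0.103), Tlx3cko 1 (0.108) or Tlx3cko 2 (0.139), with sex as a term (0.194) and among the male libraries alone (0.128), over a range from 0.000128 to 0.194. The call of Dcn was lost without control 1 (0.112), control 2 (0.106), Tlx3cko 2 (0.201) or Tlx3cko 3 (0.103), with sex as a term (0.512) and among the male libraries alone (0.452), over a range from 0.000874 to 0.512. The call of Pdgfra was lost without control 1 (0.0981), control 3 (0.129), Tlx3cko 1 (0.062), Tlx3cko 2 (0.103) or Tlx3cko 3 (0.154). With a replicate block (0.0561), with sex as a term (0.111) and among the male libraries alone it was lost too, over a range from 0.00571 to 0.154. The log2 fold changes of Col1a1, Dcn and Pdgfra were -0.52, -0.39 and -0.79. Over the alternatives they ran from -0.63 to -0.42, from -0.46 to -0.26 and from -0.92 to -0.71. Endothelial markers were higher for 1 of 5 genes, Pecam1. They summed to 809.5, 700.1 and 668 in the controls and 891, 979 and 915 in Tlx3cko DRGs. Cdh5 had the highest mean in control (199, Pecam1 190) and Pecam1 in Tlx3cko DRGs (300, Cdh5 264). The call of Pecam1 was lost without control 3 (0.0823), Tlx3cko 2 (0.0991) or Tlx3cko 3 (0.0952), over a range from 0.00187 to 0.0991. That call was also lost with sex as a term (0.0583) and among the male libraries alone. The log2 fold change of Pecam1 was 0.66, and it ran from 0.57 to 0.84 over the alternatives. The part of fibroblasts and endothelial cells in the values of these receptors was not tested.

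Other lists were as follows. Satellite glia markers, led by Apoe, had 0 of 5 past the threshold by edgeR (1 at an unadjusted p under 0.05, 1 by DESeq2, 0 by limma-voom). Mast cell markers summed to 1225, 1130.0 and 1224 in the controls and 846, 976 and 928 in Tlx3cko DRGs. Most of that sum was Kit, also expressed by neurons, with a mean of 1124 in control and 879 in Tlx3cko DRGs. Fcer1a was at 0 in all but 1 library, and 0 of 5 tested were past the threshold by edgeR (2 unadjusted, 1 by DESeq2, 0 by limma-voom). The groups did not overlap for 2 of the 5 mast cell markers tested, Kit and Tpsb2 (26.4% of control), against 19.7% of all genes. Tpsb2 had 24, 29 and 30 raw counts in the controls and 8, 10 and 0 in Tlx3cko DRGs. T and B cell markers summed to at most 87.4 in any library, with Cd79a the most abundant and 0 of 4 tested past the threshold (0 unadjusted, 0 by DESeq2 or limma-voom). Red blood cell markers, led by Hba-a1, had 0 of 5 past the threshold (1 unadjusted, 0 by DESeq2 or limma-voom). Skeletal muscle markers summed to 1779, 503 and 88.5 in the controls and 2776, 2386 and 1478 in Tlx3cko DRGs. Acta1 had the highest mean in control (251) and Myh4 in Tlx3cko DRGs (828, against 117 in control). By edgeR Myh4 was the 1 of 5 past the threshold. That call was lost without control 2 (adjusted p 0.0611) and by DESeq2 (0.0717), over a range from 8.15e-87 to 0.0717. The part of muscle RNA in the members' values was not tested.

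Markers of the neurons themselves set Il31ra and Cysltr2 in context. Of 6 markers of DRG neurons at large, 1 was higher and 0 were lower by edgeR, the higher being Scn10a with a log2 fold change of 0.43 (SE 0.07, adjusted p 0.00281 by the same edgeR test), and Tubb3 was the most abundant. At an unadjusted p under 0.05 there were 3, with 1 each past the threshold by DESeq2 and limma-voom. The groups did not overlap for 5 of the 6, against 19.7% of all genes: Scn10a and Tubb3 (112% of control) were higher, and Prph (91.8%), Avil (92.1%) and Pou4f1 (88.1%) were lower. The list summed to 118480, 130763 and 125201 normalized counts in the controls and 137985, 134494 and 131492 in Tlx3cko DRGs. Every Tlx3cko sum was thus above every control sum. Of 4 NP3 markers, 3 were lower, and the list summed to 765, 1036 and 716 in the controls and 174, 51.2 and 106 in Tlx3cko DRGs. Sst had the highest mean in control (366) and Nts in Tlx3cko DRGs (70.8, against 6.74 for Sst). In control 3 Nppb (313) was above Sst (162). Among the 3 lower markers, Htr1f missed the threshold without control 3 (adjusted p 0.0702), without Tlx3cko 2 (0.0564) and among the male libraries alone. Its adjusted p ranged from 0.000167 to 0.0702 and its log2 fold change from -1.66 to -1.22. Nppb had 2, 2 and 3 raw counts in Tlx3cko DRGs, at least 87.1-fold lower than control when each Tlx3cko library is set at the floor of 3 counts. Nts, the fourth NP3 marker, had 65, 107 and 181 raw counts in the controls and 150, 6 and 61 in Tlx3cko DRGs, with overlapping groups and a log2 fold change of -0.57 (SE 0.56) that missed the threshold.

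Control 3, the male control, stood apart for several members. Its normalized value over the mean of controls 1 and 2 was 2.12 for Il31ra, 2.04 for Cysltr2, 1.41 for Osmr, 1.83 for Il13ra1 and 1.25 for Il4ra. Among the NP3 markers that ratio was 1.16 for Nppb, 1.29 for Htr1f, 1.63 for Nts and 0.346 for Sst. Sex and animal cannot be told apart in a single library. Set against control 3 alone, the Tlx3cko libraries, all male, gave log2 fold changes of -5.12 for Il31ra, -1.36 for Osmr and -4.10 for Cysltr2. Control 3 was the highest control for each of these genes, so changes larger than against all controls were given beforehand.

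**Figure D3:**
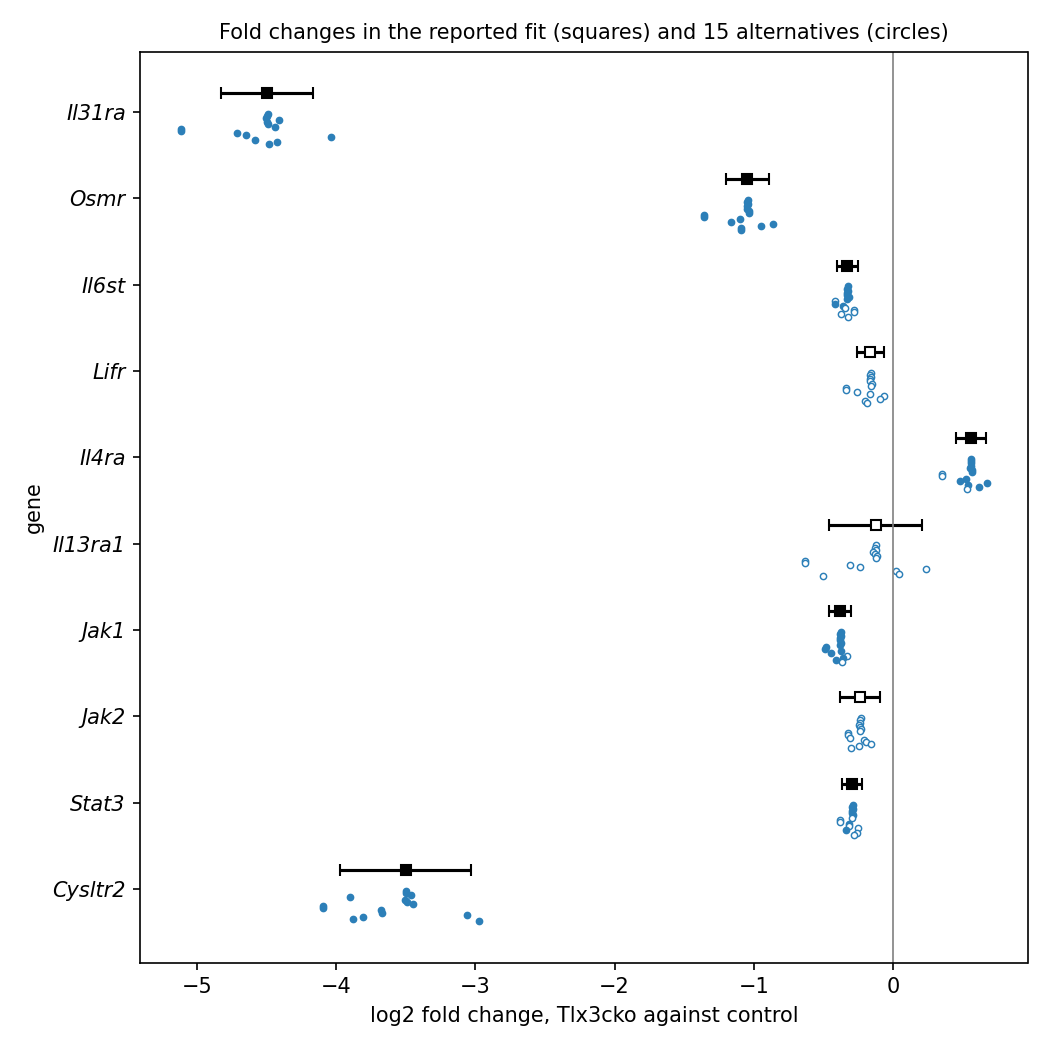
Log2 fold change (x axis) of each member (rows) in the reported fit (squares, bars are SE) and in 15 alternatives (circles), filled where past the threshold and open where not. Il31ra, Osmr and Cysltr2 are filled throughout, and Il13ra1 is open on both sides of 0.

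Levels of different genes are compared here per length, as normalized counts per kilobase of merged exons per 1000000 counts. On that scale the order by mean in control DRGs was Jak1 (55.1 ± 4.67), Il6st (51.4 ± 2.94), Lifr (41.3 ± 5.31), Stat3 (39.8 ± 2.12), Il4ra (7.98 ± 1.10), Il31ra (5.09 ± 2.41), Cysltr2 (4.19 ± 1.87), Osmr (3.81 ± 0.817), Jak2 (3.47 ± 0.311) and Il13ra1 (1.02 ± 0.388). Of the 9 neighbouring pairs in this order, 3 had control ranges apart, namely Il6st above Lifr, Stat3 above Il4ra and Jak2 above Il13ra1, and the other pairs were not separated by their spread. The shared signalling genes Jak1, Il6st and Stat3 were thus several times more abundant per length than Il31ra or Osmr, which in these mixed ganglia is a property of all cells together. In Tlx3cko DRGs the level per length was 42.3 ± 1.86 for Jak1, 41.0 ± 2.90 for Il6st, 37.0 ± 3.34 for Lifr and 32.5 ± 1.63 for Stat3. Below them stood Il4ra (11.8 ± 0.70), Jak2 (2.94 ± 0.284), Osmr (1.85 ± 0.221), Il13ra1 (0.939 ± 0.368), Cysltr2 (0.380 ± 0.273) and Il31ra (0.223 ± 0.0244). Il31ra and Cysltr2 had moved to the bottom of the order, where their ranges overlapped each other. With the longest transcript in place of merged exons, 5 of 10 members held the same place in control and 6 in Tlx3cko DRGs. On that length the control level was 8.41 ± 1.80 for Osmr, 7.85 ± 3.71 for Il31ra and 6.83 ± 3.05 for Cysltr2, which puts Osmr above the other 2, and Stat3 (62.7 ± 3.34) stood above Lifr (46.1 ± 5.92). The place of Osmr among these receptor genes thus depends on the length used.

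For each member past the threshold, the nearest profiles were sought among 13372 genes over the 6 libraries, by the root mean square difference of centred log2 values. Il31ra was nearest to Ms4a3 (0.558), Gm16364 (0.696) and Hal (0.727). Cysltr2 was nearest to Lpar5 (0.694), an RNA locus with no Ensembl ID (0.718) and the itch receptor Mrgpra3 (0.799). Osmr was nearest to Omp (0.139), 5730480H06Rik (0.148) and Cpne2 (0.170). This measure grows with counting noise and with the size of the change, so its values are not compared between members. Nearest to Jak1 were Nol4l (0.0244), 2510009E07Rik (0.0445) and Atg9a (0.0475), and Nol4l (0.0481) was also near Il6st, with Arhgap26 (0.0409) and Zdhhc13 (0.0422). Nearest to Stat3 were Itpk1 (0.0257), Thop1 (0.0275) and Gna14 (0.0286), and nearest to Il4ra were Rps6ka5 (0.0499), Tbc1d8b (0.0509) and Ampd3 (0.0553).

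Several members lie side by side in the genome. Il6st and Il31ra are neighbours on chromosome 13, 9811 bases apart on opposite strands, and their log2 fold changes were -0.33 and -4.50. Osmr and Lifr are neighbours on chromosome 15, 215644 bases apart, with log2 fold changes of -1.05 and -0.16. Stat3 lies 34373 bases from Stat5b (-0.58), with Stat5a between them (-0.09). The neighbour of Il31ra on its other side, Ddx4, had 2 to 20 raw counts per library. Of the other called members' nearest protein-coding neighbours, Rictor beside Osmr (0.10), Ankrd55 beside Il6st (0.03) and Nsmce1 beside Il4ra (-0.27) missed the threshold. Fndc3a and Rcbtb2 beside Cysltr2 (0.06 and -0.14) and Raver2 beside Jak1 (-0.21) missed it too. With 1 library left out, the values ran from 0.02 to 0.17 for Rictor, -0.05 to 0.14 for Ankrd55 and -0.44 to -0.11 for Nsmce1. They ran from 0.02 to 0.09 for Fndc3a, -0.20 to -0.07 for Rcbtb2 and -0.42 to -0.10 for Raver2. Ak4, on the other side of Jak1, was lower in all 3 Tlx3cko libraries than in the controls, with a mean at 50.3% of control that missed the threshold (adjusted p 0.0641, from 0.0438 to 0.256 over its alternatives, 1 of 15 past it). Cavin1, beside Stat3, was also lower in all 3, with a log2 fold change of -0.37 that missed the threshold (adjusted p 0.0653, from 0.0112 to 0.711, 3 of 15 past it, among them without control 3 at 0.0273). Il21r beside Il4ra had 0 to 11 raw counts per library. In a search with the longest transcript of each member, 0 of 10 matched another gene model over 100 bases at 98% identity. That search did not cover the other transcripts of Il4ra, whose overlap with Gm44876 is given above.

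The promoters of the 3 members that were past the threshold in every alternative are shown, since their lower counts are the calls that held throughout. They come from RefSeq on GRCm38.p6, 250 bases before to 50 bases after the annotated start, written 5′ to 3′ on the gene's own strand, all from the minus strand: chr13:112580613-112580912 for Il31ra, chr15:6874264-6874563 for Osmr and chr14:73049065-73049364 for Cysltr2. All 10 members matched this set, with 11 promoters in all. Capitals mark matches to TTCNNNGAA, the spacing bound by most STATs, or to the wider STAT6 motif, in which TTC and GAA stand 4 bases apart.
Il31ra: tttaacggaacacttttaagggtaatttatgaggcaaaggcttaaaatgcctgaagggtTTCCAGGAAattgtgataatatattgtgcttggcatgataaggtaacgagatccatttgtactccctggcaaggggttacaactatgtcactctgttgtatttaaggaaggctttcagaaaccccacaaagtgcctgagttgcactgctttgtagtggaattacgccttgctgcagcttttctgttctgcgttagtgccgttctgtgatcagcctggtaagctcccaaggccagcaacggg
Osmr: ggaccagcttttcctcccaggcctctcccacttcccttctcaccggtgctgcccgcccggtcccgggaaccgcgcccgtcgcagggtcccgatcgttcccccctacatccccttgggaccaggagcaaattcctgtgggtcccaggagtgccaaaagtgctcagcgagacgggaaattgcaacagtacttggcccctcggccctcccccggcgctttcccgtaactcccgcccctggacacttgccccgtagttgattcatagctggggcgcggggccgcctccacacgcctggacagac
Cysltr2: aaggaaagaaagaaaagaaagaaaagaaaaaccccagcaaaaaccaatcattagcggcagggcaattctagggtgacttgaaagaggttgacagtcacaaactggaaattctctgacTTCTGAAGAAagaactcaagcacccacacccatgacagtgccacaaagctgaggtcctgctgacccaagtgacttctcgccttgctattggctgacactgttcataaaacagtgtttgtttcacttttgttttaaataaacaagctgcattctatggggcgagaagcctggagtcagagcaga
Searched on both strands, TTCNNNGAA was found in 1 member, Il31ra, and in 8.3% of all 32851 promoters, and the STAT6 motif in 1 member, Cysltr2, and in 6.95% of all promoters. The homeodomain core TAATTG was found in 0 members and in 8% of all promoters. The share of G and C was 44.7% in the Il31ra promoter, 43.7% in that of Cysltr2 and 66% in that of Osmr, against a median of 52.7% over all promoters. A match describes letters in this window and does not show a site in use. The RefSeq starts used for Il31ra and for Osmr lie within the longer gene models given above.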

How the data were processed

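The deposited table gives raw read counts per gene made by the authors, whose processing notes name STAR 2.5.2a and mm10; the counting program, annotation and read strand are not given in the sources used here. The 6 libraries held 11458299 to 18775628 counts. Of 47937 rows, 47729 had an Ensembl ID and 47224 a symbol. Positions, lengths and overlaps came from GENCODE M21 (GRCm38), near copies from BLAST+ 2.17.0 (at least 100 bases at 98% identity), and promoters from RefSeq.

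Genes with at least 10 counts in total (20006) were tested in edgeR 4.0.16 under R 4.3.3, with TMM normalization (factors 0.994 to 1.01), the quasi-likelihood test (two-sided, group as the only term) and Benjamini-Hochberg adjusted p under 0.05 over all genes tested. SE was the log2 fold change over the square root of F. The Il31ra to Osmr ratio used raw counts plus 0.5. Counts at or under 3 were taken as the floor. The floor covers counting error only, while SE and SD include differences between libraries. The procedure was tested on simulated data.

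The members and lists were chosen with earlier results of these data known. Lists were cytokine ligands, other gp130-family chains, other itch-linked receptors, other JAKs and STATs, JAK-STAT inhibitors, STAT3 target genes, other leukotriene genes, and markers of DRG neurons, NP3 neurons, satellite glia, macrophages, T and B cells, mast cells, neutrophils, endothelial cells, fibroblasts, red blood cells and skeletal muscle; 1 further marker list is not reported here. Socs3 stands in both the inhibitor and the target list. Named genes were Tlx3, the members, list genes past the threshold, the most abundant of each list, those at or under the floor, markers that moved, the 3 nearest profiles of each called member (mean of at least 50 normalized counts, pseudocount 1), and protein-coding neighbours. Osm, Cysltr1, Socs3, Junb, Cebpd, Kif3a, Atxn2, Prph, Avil, Pou4f1, Gm44876, Gm20531 and Gm9847 were named after their values were seen. So were Acta1, Cdh5, Adgre1, Itgam, Cx3cr1, Ltb4r1 and Tpsb2.

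Alternatives were RLE and upper-quartile normalization, DESeq2 1.42.0, limma-voom 3.58.1, at least 1 count in total, filterByExpr, a replicate block, sex as a term, leaving out each library, adjusted p under 0.01, a pseudocount of 1 in the ratio and the longest transcript for levels. The male libraries alone, chosen after seeing the data, set control 3 against 3 Tlx3cko libraries and assume that the lone control varies as they do. Tables and figures were made in Python 3.11.15.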

Additional observations from a re-analysis of the deposited data

How the results depend on the processing

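Over all genes 851 were past the threshold, and 1529 were with at least 1 count in total, 487 with sex as a term, 553 among the male libraries alone (chosen after seeing the data), 418 at an adjusted p under 0.01 and 488 to 938 when 1 library was left out (530 without control 2, 488 without Tlx3cko 2, 512 without Tlx3cko 3). Of the 10 members 7 were past it, with 4 under sex as a term, 5 among the male libraries, 4 at an adjusted p under 0.01 and 3 to 7 when 1 library was left out. Of the other pathway genes 7 were past it, with 10 at 1 count or more in total, 4 under sex as a term, 3 among the male libraries, 3 at an adjusted p under 0.01 and 3 to 4 when 1 library was left out. With a replicate block the counts were 770 genes, 6 members and 5 pathway genes; same-number libraries were not more alike across genotypes (correlations -0.135, -0.00947 and -0.112), and the replicate numbers are not known to be pairs. The difference in the Il31ra to Osmr ratio ran from -3.54 to -3.16. In levels per length, 5 members kept their place in control with the longest transcript. For 61 named genes there were 914 alternative values. Of these, 774 were on the same side of the threshold, 125 no longer past it, 15 newly past it and 0 reversed. Fits with 1 library left out also hold fewer libraries, and the cause of the lost calls was not tested. With controls of both sexes and Tlx3cko libraries of 1 sex, the sex term rests on the 3 controls. For Il13ra1 (30 to 102 raw counts) the log2 fold change of -0.12 had an SE of 0.34, and ligands with fewer than 10 counts in total were not tested.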
